A study of Rattus norvegicus with 24 samples.

Results

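The potassium channel genes of the rat were followed across prostate, skin, forebrain and ovary, with and without dihydrotestosterone (DHT), an androgen that binds the androgen receptor directly. The array carried 85 probes for 76 genes whose rat symbol starts with Kcn. A probe was kept where the scanner software called it well above background on 3 or more arrays of at least 1 tissue, which left 78 probes of 70 genes. The same rule kept 34974 of all 41012 probes. Of the 78 probes, 39 passed in prostate, 40 in skin, 72 in forebrain and 60 in ovary, and 26 passed in all 4 tissues. The 7 probes that did not pass, for Kcnj1, Kcnj2, Kcnj15, Kcnk15, Kcnh8, Kcne4 and 1 of the Kcnd3 probes, reached 2 arrays of a tissue at most, and the Kcna3 and Kcnk18 probes were just inside with 3.

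All animals were Sprague-Dawley rats of 12 weeks. Prostate, skin and forebrain came from castrated males that received, 3 days after castration, 1 intraperitoneal dose of DHT at 10 mg/kg or the vehicle. Ovaries came from intact females given the same DHT dose or vehicle, so in these animals the gonads had not been removed. The tissues were taken 16 hours after dosing, with 3 arrays in each of the 8 groups, labelled as biological replicates. Forebrain vehicle array 3 was left out because its label reports a failed quality check, so forebrain had 3 DHT and 2 vehicle arrays. The whole-tissue RNA was read in 1 colour (Cy3) on Agilent arrays, and every level below is a log2 processed signal from which the 75th percentile of its array was taken. In such samples, fewer cells of a type and less RNA per cell cannot be told apart.

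Potassium channels let potassium leave or enter cells along its gradient, and so set the resting membrane potential and end action potentials. Voltage gated channels open on depolarisation, calcium or sodium activated channels follow the ions inside the cell, inward rectifiers hold the resting potential, two-pore domain channels carry a steady leak, and auxiliary subunits change the gating or traffic of the pore proteins. They are best known in nerve and muscle, while in epithelia they support secretion and volume control. The 78 probes comprised 29 for voltage gated pore subunits, 15 for auxiliary subunits, 13 for inward rectifiers, 12 for two-pore domain channels and 9 for calcium or sodium activated channels.

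Some arrays stood apart. The share of probes called well above background was 96.5% on vehicle array 1 of ovary and 97.0% on its vehicle array 3, but 70.5% on its vehicle array 2, and prostate vehicle array 3 carried 1531 spots that the software had marked as outliers. These 3 arrays had a narrower spread of levels, with interquartile ranges of 3.20 to 4.99 on the log2 scale, and 77 probes met the rule without them. Forebrain DHT array 1 came close, with an interquartile range of 5.01 and 87.5% of probes well above background. It stayed in the fits without these 3 arrays. Each of the 6 slides held 1 array of each tissue, and every slide carried DHT arrays or vehicle arrays only. Slide and treatment therefore cannot be told apart, while tissues were compared within slides. All 10 neuron genes measured were well above background on every forebrain array, as were all 4 keratinocyte genes in skin and all 9 granulosa, theca and luteal genes in ovary. Of 5 prostate epithelium genes, 5 were so on every DHT array and 4 on every vehicle array of prostate.

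The promoters of genes that DHT raised in prostate are shown first, since the androgen receptor is a DNA-binding transcription factor. The RefSeq promoter table (build GRCr8) held 46 of the 70 genes, and 3 of the 6 genes that changed in prostate: Kcnmb4, Kcnip3 and Kcnh1. The windows run from 250 bases before to 50 bases after the gene start, given 5′ to 3′ on the strand of the gene, for the 2 of these genes whose signal rose. Kcnmb4 lies on the minus strand, with its window at chr7:54005052-54005351, and Kcnip3 also on the minus strand, at chr3:135195361-135195660. Capitals mark the half-site AGAACA of the androgen response element, searched on both strands (TGTTCT on the strand shown).
Kcnmb4: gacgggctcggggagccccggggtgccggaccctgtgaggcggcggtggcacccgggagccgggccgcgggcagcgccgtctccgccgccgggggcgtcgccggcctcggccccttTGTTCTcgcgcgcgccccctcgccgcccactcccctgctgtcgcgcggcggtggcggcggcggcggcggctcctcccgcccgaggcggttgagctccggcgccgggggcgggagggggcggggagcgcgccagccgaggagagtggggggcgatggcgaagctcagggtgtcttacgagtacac
Kcnip3: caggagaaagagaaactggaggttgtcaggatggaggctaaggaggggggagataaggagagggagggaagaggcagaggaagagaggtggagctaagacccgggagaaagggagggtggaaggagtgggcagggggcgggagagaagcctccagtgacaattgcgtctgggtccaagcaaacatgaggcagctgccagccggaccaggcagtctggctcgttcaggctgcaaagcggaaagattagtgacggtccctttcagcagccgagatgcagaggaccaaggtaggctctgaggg
The Kcnmb4 window held 1 half-site, which starts at position -134 from the gene start, and the Kcnip3 and Kcnh1 windows held none. A half-site was present in 13% of the 46 potassium channel promoters and in 20.7% of all 33469 promoters in the table. The paired element, AGAACA and TGTTCT with 3 bases between, was in none of the 46 and in 0.0149% of all promoters. These are matches of letters in a short window and carry no information on binding elsewhere.

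The tissue pattern was compared first. Most potassium channel probes were brightest in forebrain: 57 of the 78 had their highest mean there, against 8 in prostate, 7 in ovary and 6 in skin. In 1 limma fit of all 23 arrays with slide as a random block, 42 probes were higher in forebrain than in each of the other 3 tissues at a Benjamini-Hochberg adjusted p under 0.05, which is 53.8% of the 78 probes, against 15.5% of all 34974 probes. The corresponding counts were 5 in prostate (6.41%, against 11.3% of all probes), 6 in ovary (7.69%, against 8.26%) and 2 in skin (2.56%, against 17.7%). Of the 78 probes, 14 met the signal rule in forebrain alone and so entered through the tissue where they are high, so the forebrain share describes these probes and is not support for the pattern. With normexp background correction the counts were 25 in forebrain and 13 in skin. With vehicle arrays only they were 27 in forebrain and 1 in skin. The shares of all probes in these fits are not given here. The median level of the 78 probes was -1.29 in forebrain, -5.21 in prostate, -4.05 in skin and -4.15 in ovary, while the median over all probes lay between -2.43 and -1.98 in the 4 tissues.

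**Figure D1:**
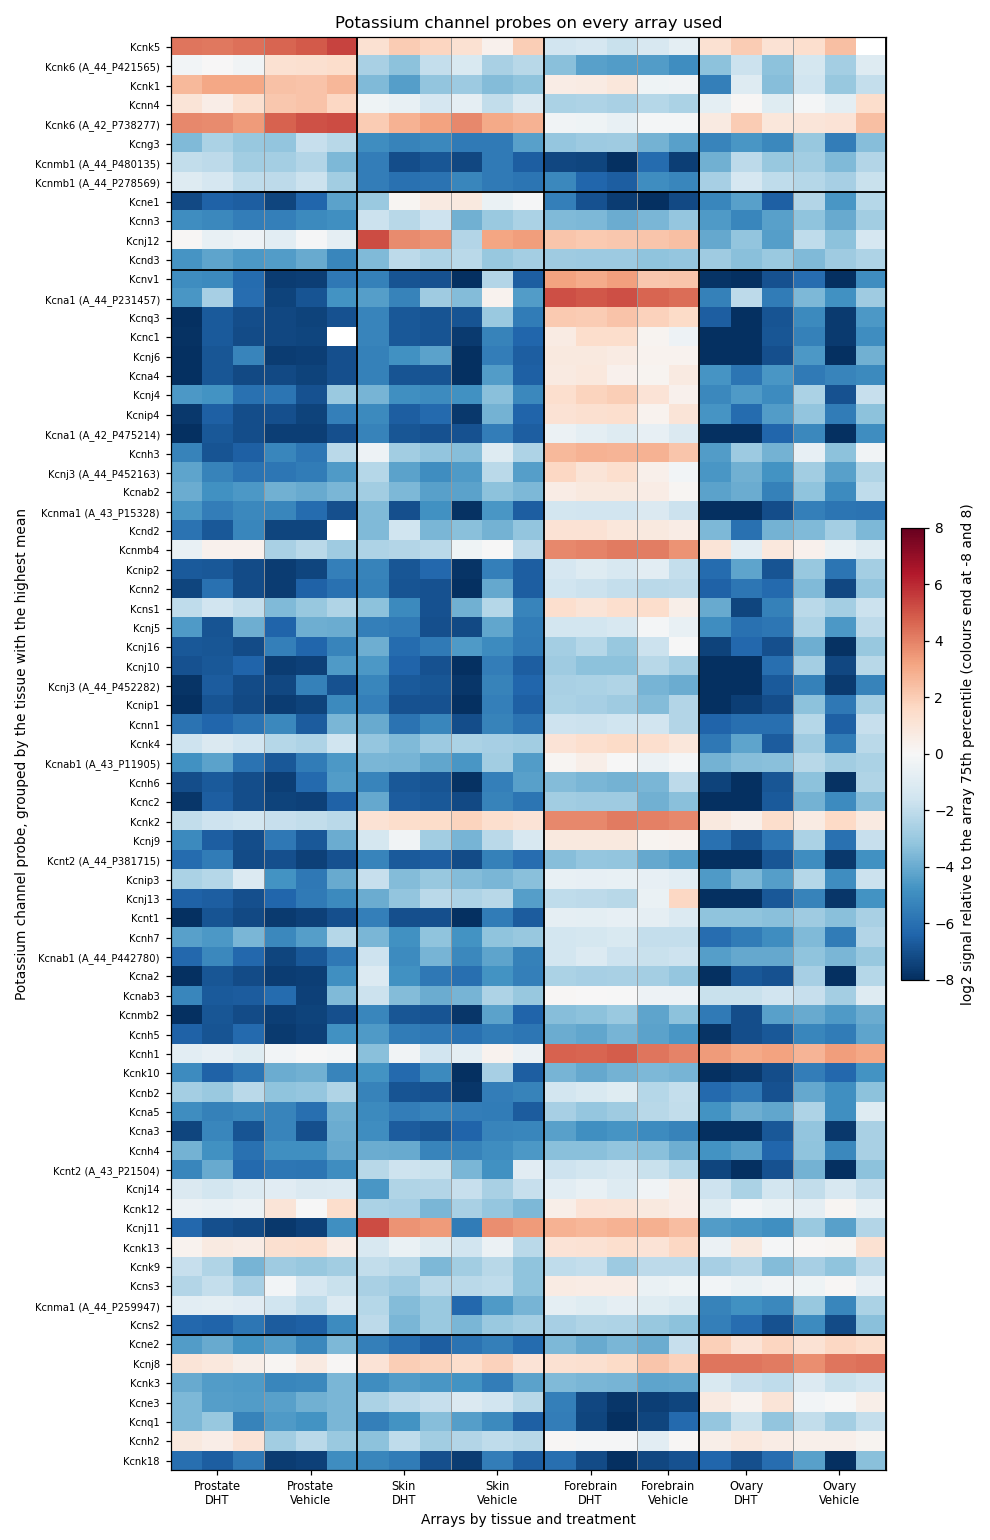
Level of 74 of the 78 potassium channel probes (rows) on each of the 23 arrays used (columns, DHT left of vehicle within each tissue), as log2 signal relative to the 75th percentile of the array. Rows are grouped by the tissue with the highest mean (prostate, skin, forebrain, ovary from the top) and ordered by the difference to the next tissue; a blank white cell in the rows of Kcnk5, Kcnc1 or Kcnd2 is a spot left out as an outlier, and the block of 55 rows has its highest mean in forebrain.

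The largest differences were in forebrain. Kcnv1, a silent subunit that modifies other voltage gated channels, ranged from 2.17 to 3.26 on the 5 forebrain arrays (median 2.95), against -7.97 to -2.33 in skin, the next tissue, a difference of 8.74 ± 0.77 (SE; adjusted p = 1.52e-08). It was well above background on all 5 forebrain arrays and on 1 array each of the other tissues, so the difference is largely against background. Kcnq3, a subunit of the M-current that restrains repeated firing, ranged from 1.55 to 2.27 in forebrain, against -6.92 to -2.95 in skin, a difference of 7.67 ± 0.62 (adjusted p = 5.31e-09), with 1 of 6 skin arrays well above background. No forebrain array overlapped any array of another tissue for either probe. Both probes met the signal rule in forebrain alone, so the rule itself favours a difference. Their p-values and separation are descriptive only.

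Both probes for Kcna1, a channel that limits axonal firing, were higher in forebrain than in skin, the next tissue, by 8.22 ± 0.87 (A_44_P231457, well above background on 3 of 6 skin arrays) and, for the dimmer probe A_42_P475214, which stood above background on no skin array, at least 11.7-fold (adjusted p = 4.90e-08). Such a bound sets the mean of the bright group against the lowest signal called well above background on the arrays of the dim group. Kcnc1, a fast channel of rapidly firing neurons, was at least 32.8-fold higher in forebrain than in skin (adjusted p = 4.39e-09), where no array had it well above background. For these 3 probes every forebrain array lay above every other array. Kcnc1 and the dimmer Kcna1 probe met the signal rule in forebrain alone, so their p-values and separation are descriptive only.

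Among inward rectifiers, Kcnj6, a G protein gated channel of neurons, ranged from 0.27 to 0.80 in forebrain, against -8.03 to -4.30 in skin, a difference of 6.35 ± 0.63, with 1 of 6 skin arrays well above background. Kcnj4 was higher in forebrain than in ovary, the next tissue, by 5.6 ± 0.77, and the brighter probe of Kcnj3, a partner of Kcnj6 in the G protein gated channel, was higher than in skin by 4.50 ± 0.52. Of the 13 inward rectifier probes, 9 were higher in forebrain than in each other tissue. Of the 29 voltage gated probes 16 were, of the 15 auxiliary probes 10, of the 9 calcium or sodium activated probes 5, and of the 12 two-pore domain probes 2. Of all probes, 15.5% were. The 14 probes that met the signal rule in forebrain alone, Kcnj6 among them, are included here. These counts therefore describe the families and do not set one apart from another.

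The other large differences in forebrain were in pore and auxiliary subunits. Kcnip4, a calcium-binding partner of the Kcnd channels, differed from ovary by 5.55 ± 0.62, and Kcnd2, a pore of the transient outward current in dendrites, differed from skin by 4.05 ± 0.44. Kcna4, also a rapidly inactivating channel, differed from ovary by 5.76 ± 0.46, and Kcnh3, a relative of Kcnh2, differed from skin by 4.86 ± 0.69. Kcnab2, a cytoplasmic subunit of Kcna channels, differed from skin by 4.24 ± 0.40. Kcnma1, the pore of the large-conductance calcium activated channel, depended on the probe: A_43_P15328 was higher in forebrain than in prostate by 4.12 ± 0.58, whereas A_44_P259947 differed by 0.30 ± 0.43 (adjusted p = 0.576). Kcnmb4, an auxiliary subunit of that channel known mainly from neurons, differed from ovary by 3.90 ± 0.37. All of these differences except that of the second Kcnma1 probe passed the test against each other tissue. The first Kcnma1 probe met the signal rule in forebrain alone, so its difference is descriptive only. Where the next tissue was only partly measured, the size is uncertain: the first Kcnma1 probe was well above background on 2 of 6 prostate arrays, Kcnip4 on 3 of 6 ovary arrays, Kcnj4 on 4 of 6 ovary arrays, and Kcnd2 and the brighter Kcnj3 probe on 4 of 6 skin arrays.

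**Figure D2:**
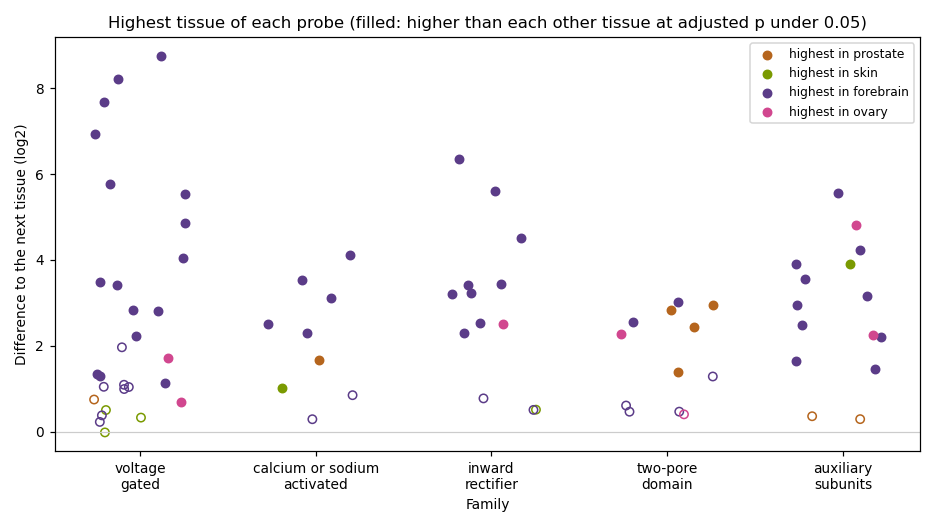
Difference between the highest tissue and the next tissue (log2) for each of the 78 potassium channel probes, by family; colour gives the highest tissue, and filled points were higher than each other tissue at an adjusted p under 0.05. Forebrain points fill the upper range of the voltage gated and inward rectifier families. For prostate, 4 of the 12 two-pore domain probes were filled, next to 11.3% of all probes.

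In prostate, 4 of the 5 probes higher than in each other tissue were for two-pore domain channels. Kcnk5, an acid-sensitive leak channel of epithelia, ranged from 4.24 to 5.43 in prostate, against 1.13 to 2.42 in ovary, the next tissue, a difference of 2.96 ± 0.27 (adjusted p = 1.36e-07). Kcnk1, a weakly rectifying leak channel, ranged from 2.28 to 3.09 in prostate, against -0.31 to 0.92 in forebrain, a difference of 2.45 ± 0.51. Kcnk6, a relative of Kcnk1, was higher in prostate than in the next tissue with both probes, by 2.83 ± 0.34 (A_44_P421565, against ovary) and 1.39 ± 0.28 (A_42_P738277, against skin). Kcnn4, the intermediate-conductance calcium activated channel of epithelia and leukocytes, was the only prostate probe of another family, with a difference of 1.68 ± 0.31 to ovary. The arrays of prostate lay above all others for Kcnk5, Kcnk1 and the first Kcnk6 probe and overlapped other tissues for Kcnn4 and the second Kcnk6 probe.

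In ovary, the 6 probes were for Kcne2, Kcnj8, Kcnk3, Kcne3, Kcnq1 and Kcnh2. Kcne2, an auxiliary subunit of several voltage gated channels, ranged from 1.1 to 1.93 in ovary, against -4.04 to -1.85 in forebrain, a difference of 4.81 ± 0.34 (adjusted p = 1.33e-09). Kcnj8, the pore of the ATP-sensitive channel of vascular smooth muscle, ranged from 3.72 to 4.38 in ovary, against 1.24 to 2.19 in forebrain, a difference of 2.50 ± 0.19. Kcnk3, an acid-sensitive leak channel, was higher than in forebrain by 2.28 ± 0.26, and Kcne3, an auxiliary subunit of Kcnq1, was higher than in skin by 2.26 ± 0.31. For these 4 probes every ovary array lay above every other array. Kcnq1, a delayed rectifier of epithelia and heart, was higher in ovary than in prostate by 1.71 ± 0.53 (adjusted p = 0.0114), with overlapping arrays. Without the 3 arrays of narrow spread Kcnq1 no longer passed (adjusted p = 0.0820).

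In skin, Kcne1, an auxiliary subunit of Kcnq1, and Kcnn3, a small-conductance calcium activated channel, were higher than in each other tissue. Kcne1 ranged from -2.99 to 0.81 in skin, against -6.50 to -2.29 in ovary, a difference of 3.91 ± 0.65 (adjusted p = 4.98e-05). Kcnn3 was higher in skin than in forebrain by 1.03 ± 0.25 (adjusted p = 0.00155). For both probes the arrays of skin overlapped those of another tissue.

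Among the 8 probes with the smallest range over the tissue means were those for Kcnk9, Kcnk18, Kcna3, Kcnh4, Kcnd3 and Kcnj14. Kcnk9, an acid-sensitive leak channel, had tissue means within 0.59 of each other, was well above background on all 23 arrays and had medians of -2.82 in prostate, -2.51 in skin, -2.07 in forebrain and -2.68 in ovary. The other 5 named had ranges of 1.28 to 2.25. Kcnk18 was well above background on 3 ovary arrays and 1 forebrain array, and Kcna3 on 3 forebrain, 2 ovary and 1 prostate array. Their small ranges therefore lie largely at background. With normexp the Kcnk18 difference of ovary minus skin was -2.08 (limma adjusted p = 8.17e-05). The Kcna3 difference of forebrain minus skin was then -1.53 (limma adjusted p = 0.00160). None of the 8 was higher in 1 tissue than in each other tissue.

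The effect of DHT was then compared with vehicle within each tissue. In prostate, an androgen-dependent gland, 7 of the 39 potassium channel probes tested passed an adjusted p under 0.05 in limma, 3 higher and 4 lower with DHT. This is 17.9% of them, against 9.96% of all 26893 probes tested (5.23% higher and 4.73% lower). The 3 higher probes were for Kcnh2, Kcnmb4 and Kcnip3, and the 4 lower probes were for Kcnk6 (both probes), Kcnh1 and Kcnn4. The median log2 fold change of the 39 probes was 0.07, against 0.06 over all probes, with 20 above 0 and 19 below. The count of 7 was 3 with normexp background correction, 3 with dim probes left in, 3 in the fit of all tissues with a slide block, and 13 with array weights. Kcnh2 and Kcnmb4 passed in all 4 of these. With a replicate block no potassium channel probe passed, Kcnh2 included. The shares of all probes in these fits are not given here, so only the movement of the count is read. The DHT and vehicle arrays did not overlap for 13 of the 39 probes, against 35.9% of all probes.

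Kcnh2 encodes the pore of the rapid delayed rectifier, best known for ending the action potential of the heart. Its probe (A_43_P12992) read 0.76, 0.51 and 1.12 on the 3 DHT arrays of prostate, against -2.75, -2.13 and -2.98 on the 3 vehicle arrays. Every DHT array was far above every vehicle array. The mean was 0.80 ± 0.30 with DHT and -2.62 ± 0.44 with vehicle (SD, n = 3 each), a log2 fold change of 3.42 ± 0.27 (SE) or 10.7-fold, with a limma adjusted p of 0.00363.

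Kcnmb4 (A_44_P491976) read -0.59, 0.34 and 0.32 with DHT, against -2.61, -2.17 and -2.83 with vehicle. The log2 fold change was 2.56 ± 0.31 (5.88-fold; limma adjusted p = 0.00773), and the groups were separate, with 1 DHT array lower than the other two. Kcnip3 encodes a calcium-binding protein that acts as a partner of Kcnd channels and as a transcriptional repressor. Its probe (A_44_P231583) read -2.51, -2.27 and -1.10 with DHT, against -4.79, -5.75 and -4.04 with vehicle, where 2 of 3 arrays were well above background. The log2 fold change was 2.90 ± 0.53 (limma adjusted p = 0.0232), again without overlap but with a wider spread within both groups.

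The lowered channels included the leak channel Kcnk6, with the same direction in both probes. Probe A_42_P738277 read 3.85, 3.76 and 3.39 with DHT, against 4.73, 5.08 and 5.20 with vehicle, and probe A_44_P421565 read -0.21, 0.05 and -0.29 with DHT, against 1.24, 1.30 and 1.42 with vehicle. Their log2 fold changes were -1.34 ± 0.20 and -1.47 ± 0.16 (limma adjusted p = 0.0139 and 0.00570), and neither probe had overlapping groups. Kcnn4 read 1.01, 0.51 and 1.25 with DHT, against 2.14, 2.28 and 1.65 with vehicle, a log2 fold change of -1.10 ± 0.26 (limma adjusted p = 0.0484). Kcnh1, a voltage gated relative of Kcnh2, read -0.86, -0.67 and -0.98 with DHT, against -0.24, -0.04 and -0.15 with vehicle, a log2 fold change of -0.69 ± 0.16 (limma adjusted p = 0.0404). Kcnn4 and Kcnh1 were close to the threshold, and the Kcnh1 change was the smallest of the 7. The lowered Kcnk6 and Kcnn4 were also 2 of the 4 genes that were higher in prostate than in each other tissue.

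**Figure D3:**
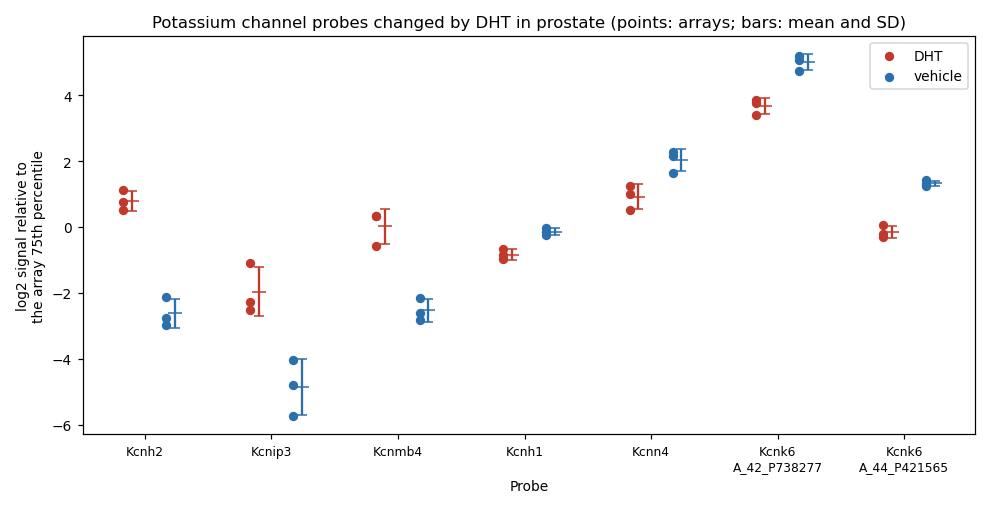
Level on each prostate array (log2 signal relative to the array 75th percentile) of the 7 potassium channel probes with an adjusted p under 0.05, DHT left and vehicle right; bars are means with SD, n = 3 each. Kcnh2, Kcnip3 and Kcnmb4 lie higher with DHT, and Kcnh1, Kcnn4 and both Kcnk6 probes lower, with no overlap of the arrays.

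Kcnh2, Kcnmb4 and the first Kcnk6 probe (A_44_P421565) passed whichever prostate array was left out, whereas Kcnh1 passed in none of these 6 fits. Kcnip3 passed only without DHT array 1 or vehicle array 3, Kcnn4 only without vehicle array 3, and the other Kcnk6 probe in all but the fits without DHT array 2 or vehicle array 2. The count of 7 ranged from 3 without DHT array 2 to 11 without vehicle array 3, the array with many outlier spots. It was 4 without DHT array 3, without vehicle array 1 or without vehicle array 2. The shares of all probes in these fits are not given here.

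The next probes did not pass. Kcns1, a silent subunit that joins other voltage gated channels, had a log2 fold change of 1.16 ± 0.30 (limma adjusted p = 0.0614), and Kcnk12, a two-pore domain subunit, of -1.30 ± 0.37 (limma adjusted p = 0.0753). Kcnk5, the probe with the largest difference between prostate and the next tissue, had a log2 fold change of -0.70 ± 0.22 (limma adjusted p = 0.0989). By family, 2 of 8 auxiliary probes rose, 2 of 11 two-pore domain probes fell, 1 of 2 calcium or sodium activated probes fell, 1 of 14 voltage gated probes rose and 1 fell, and no inward rectifier probe of 4 passed, where 5.23% of all probes rose and 4.73% fell. These counts are too small to set one family apart from another.

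Genes that work beside potassium channels, such as sodium pumps, chloride cotransporters and pacemaker channels, were described from a list of 55 genes, of which 42 were on the array. In prostate 32 of them were tested with 40 probes, and 3 probes rose and 2 fell, next to 5.23% and 4.73% of all probes, so nothing is read from the count. Atp1b1, a subunit of the sodium and potassium pump, had a log2 fold change of 1.38 ± 0.27 (limma adjusted p = 0.0363). Slc12a2, the sodium, potassium and chloride cotransporter of secretory epithelia, had 1.63 ± 0.29 with 1 probe (limma adjusted p = 0.0277) and 0.99 ± 0.26 with the other (limma adjusted p = 0.0629). Hcn3, a pacemaker channel, had -1.75 ± 0.16 with probe A_43_P15414 (limma adjusted p = 0.00437). The other Hcn3 probe, with overlapping groups, had -0.67 ± 0.62 (limma adjusted p = 0.534). Lrrc26, an auxiliary subunit of the Kcnma1 channel, had -1.15 ± 0.26 (limma adjusted p = 0.0417). The Kcnma1 channel had 1 auxiliary probe higher (Kcnmb4) and 1 lower (Lrrc26), while the pore probe A_44_P259947 had a log2 fold change of 0.70 ± 0.25 that did not pass (limma adjusted p = 0.133). Both probes of Kcnmb1, another auxiliary subunit, did not pass either (0.76 ± 0.36 and 0.61 ± 0.37, limma adjusted p = 0.223 and 0.333).

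Marker lists moved in prostate as well, where 5.23% of all probes were higher with DHT and 4.73% lower. Of the 5 adipocyte genes tested, 4 were higher with DHT, and the summed level of the 6 measured genes was 4.64 to 5.09 with DHT, against 3.46 to 3.76 with vehicle. Of 5 prostate epithelium genes, 2 were higher and 1 lower, with sums of 6.62 to 8.91 with DHT, against 7.72 to 8.58 with vehicle. The neuron genes were summed at -0.24 to 0.65 with DHT, against -0.86 to -0.34 with vehicle, with none of the 3 tested passing. Keratinocyte genes were summed at 3.42 to 3.93 with DHT, against 4.45 to 4.65 with vehicle, with 1 of 3 tested lower. The skeletal muscle list was summed at 2.73 to 3.02 with DHT, against 1.36 to 2.40 with vehicle and none of 6 tested passing, and the choroid plexus list at 3.68 to 4.18 with DHT, against 3.13 to 3.29 with vehicle and 1 of 3 tested higher. By summed level the neuron, keratinocyte, skeletal muscle and choroid plexus lists did not overlap between the groups. By mean level all of them did. The adipocyte list was separate by both, with mean levels of 0.08 to 0.43 with DHT, against -0.96 to -0.36 with vehicle. Of all single probes tested in prostate, 35.9% did not overlap. The prostate epithelium list was separate by mean level, at 2.71 to 3.65 with DHT, against 1.54 to 2.51 with vehicle. The part of these shifts in the potassium channel changes was not tested.

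The difference of the DHT effect between tissues was tested for the 23552 probes that passed in all 4 tissues. It passed for 3 of 26 potassium channel probes, against 4.69% of all, and the 3 were the probes that DHT raised in prostate. For Kcnh2 (adjusted p = 6.03e-05) the log2 fold change was 3.42 in prostate, -0.50 ± 0.37 in skin, 0.34 ± 0.29 in forebrain and 0.30 ± 0.22 in ovary. Kcnmb4 (adjusted p = 0.00870) had 2.56 in prostate, -1.50 ± 0.55 in skin, 0.11 ± 0.19 in forebrain and 0.76 ± 0.61 in ovary. Kcnip3 (adjusted p = 0.0340) had 2.90 in prostate, 0.71 ± 0.43 in skin, 0.14 ± 0.13 in forebrain and -1.19 ± 0.86 in ovary. None of these effects outside prostate passed the test on its own. The count of 3 was 7 without ovary vehicle array 2, 6 without skin DHT array 2 and 5 without skin vehicle array 2 or 3, and Kcnip3 was lost without several single arrays, with 2 probes left. With normexp background correction 1 probe passed, that for Kcnh2. The shares of all probes in these fits are not given here, so only the movement of the count is read.

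**Figure D4:**
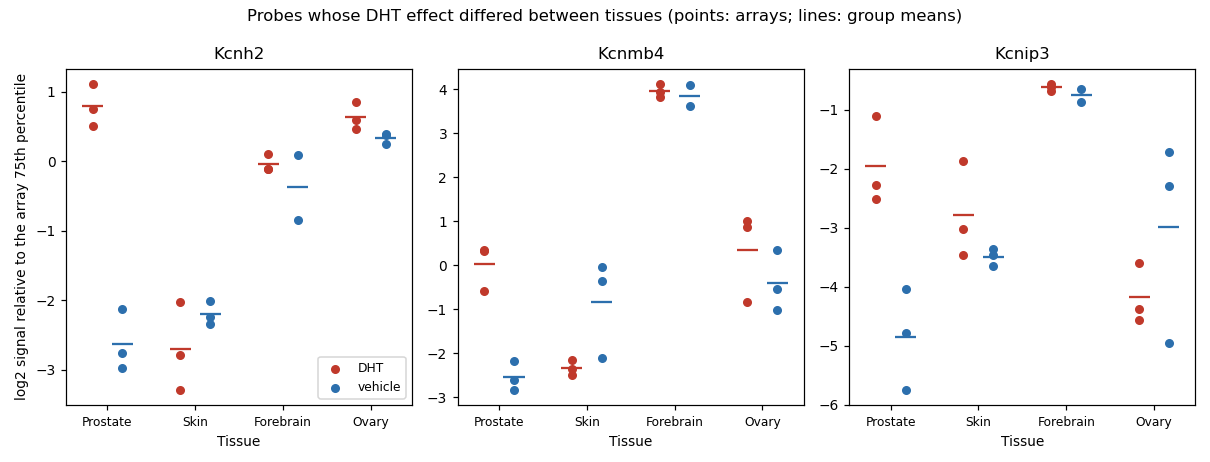
Level of Kcnh2, Kcnmb4 and Kcnip3 on every array used (log2 signal relative to the array 75th percentile), by tissue, with DHT left of vehicle; lines are group means. DHT arrays lie apart from vehicle arrays in prostate for all 3 probes, while in forebrain the groups overlap for all 3.

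The next 5 probes by this test did not pass. They were Kcns3, another silent subunit (adjusted p = 0.0511), Kcnma1 (0.0563), Kcnj12 (0.145), Kcnk4 (0.157) and Kcnh1 (0.161). Kcns3 had a log2 fold change of -1.19 in prostate and 1.07 in forebrain.

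Across tissues, the order of Kcnh2 levels depended on treatment. With DHT its means were 0.80 ± 0.30 in prostate, 0.64 ± 0.20 in ovary, -0.03 ± 0.13 in forebrain and -2.70 ± 0.64 in skin (SD, n = 3 each). With vehicle they were 0.34 ± 0.08 in ovary, -0.37 ± 0.66 in forebrain (n = 2), -2.20 ± 0.17 in skin and -2.62 ± 0.44 in prostate. Prostate and ovary with DHT had means closer than their SDs. The 2 forebrain vehicle arrays had the widest spread among the vehicle groups. Averaged over treatments, Kcnh2 was higher in ovary than in forebrain by 0.70 ± 0.22 (adjusted p = 0.00935), with overlapping arrays.

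The relatives of Kcnh2 were highest in forebrain. Kcnh1 was higher there than in ovary by 1.30 ± 0.35, with medians of -0.46 in prostate and -0.63 in skin, and Kcnh7 was higher in forebrain than in skin by 2.23 ± 0.53. Kcnh6 differed from ovary by 2.83 ± 0.80, with 2 of 6 ovary arrays, both vehicle, well above background. Kcnh5 was at least 1.16-fold higher than in skin, but with normexp the difference of forebrain minus skin was -1.17 (adjusted p = 0.00756), so its direction depends on the background correction. Kcnh4 was 1.0 ± 0.44 above ovary (adjusted p = 0.0589). In prostate, Kcnh3, Kcnh4 and Kcnh7 had log2 fold changes of -1.87 ± 0.97, -0.25 ± 0.55 and -0.23 ± 0.73 (limma adjusted p from 0.266 to 0.867). Kcnh5 and Kcnh6 did not meet the signal rule in prostate or skin, nor Kcnh6 in ovary. In forebrain, the log2 fold changes of Kcnh1, Kcnh5 and Kcnh7 were 0.59, 0.54 and 0.54, and that of Kcnh6 was -0.77, none of which passed.

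In skin, none of 40 potassium channel probes and 0% of all 27291 probes passed the adjusted p of limma. At an unadjusted p under 0.05 there were 3 of 40, against 4.97% of all probes, and the groups did not overlap for 5 of 40, against 12.2%. Kcnn3 had a log2 fold change of 1.25 ± 0.40, Kcnma1 (A_44_P259947) of 1.94 ± 0.68 and Kcnmb4 of -1.50 ± 0.55, all with a limma adjusted p of 0.75. The next probes were Kcnk4 (-0.54 ± 0.27), Kcnj12 (2.79 ± 1.51), Kcnh1 (-1.40 ± 0.76), Kcnab1 (A_44_P442780, 1.46 ± 0.82) and Kcnip3 (0.71 ± 0.43), with the same adjusted p. The other Kcnab1 probe had 0.10 ± 0.52 (limma adjusted p = 0.964). Kcnmb4 read -2.49, -2.35 and -2.16 with DHT, against -0.36, -0.04 and -2.10 with vehicle. Skin vehicle array 2, the highest of these, also stood apart in neural genes: neuron genes had mean levels of -4.26 to -2.97 with DHT, against -1.02 on that array and -5.10 and -3.61 on the other vehicle arrays, and oligodendrocyte genes of -2.01 to -1.33 with DHT, against 1.01 on that array and -2.72 and -1.69 on the others. Vehicle array 1, where Kcnmb4 was also high, had the lowest mean of both lists. Their part in the Kcnmb4 values was not tested.

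Kcnj12 and Kcnj11 had the widest spread in skin. Kcnj12, a strong inward rectifier of muscle, read 5.21, 3.76 and 3.60 with DHT, against -2.34, 3.18 and 3.35 with vehicle. Kcnj11, the pore of the ATP-sensitive channel of muscle and pancreatic islets, read 5.25, 3.60 and 3.39 with DHT, against -5.62, 3.71 and 3.43 with vehicle. In both, vehicle array 1 was far below the other 5. The mean level of the 7 skeletal muscle genes measured followed the same arrays, with 8.48 to 11.1 with DHT, against -1.81 on vehicle array 1 and 9.58 and 9.69 on the other vehicle arrays, and the part of muscle content in these probes was not tested. Hair follicle genes were summed at 0.21 to 7.55 with DHT, against 6.90 to 8.39 with vehicle, and their part was not tested either.

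In forebrain, with 3 DHT and 2 vehicle arrays, none of 72 potassium channel probes and 0% of all 29722 probes passed, and the lowest adjusted p of limma was 0.0684 for both. At an unadjusted p under 0.05, 26 of the 72 were higher, against 14% of all probes, and 8 were lower, against 14%. The DHT arrays lay wholly above the vehicle arrays for 36 of 72, against 24.7% of all probes, and wholly below for 11, against 23.1%. The median log2 fold change was 0.31 for the 72 probes and -0.0047 for all probes. By family the median was 0.49 for voltage gated probes, 0.32 for auxiliary probes, 0.28 for calcium or sodium activated probes, 0.02 for two-pore domain probes and -0.14 for inward rectifiers.

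Among the 8 probes with the smallest p were Kcnj3, Kcns3, Kcnk1, Kcnt2, Kcnv1, Kcnj5 and Kcng3. Kcnj3 (A_44_P452282) read -2.61, -2.53 and -2.40 with DHT, against -3.70 and -3.96 with vehicle, and the second Kcnj3 probe read 1.64, 1.05 and 1.33 with DHT, against 0.38 and -0.20. Both had separate groups, with log2 fold changes of 1.32 ± 0.15 and 1.25 ± 0.26 (limma adjusted p = 0.0684 and 0.0756). Kcns3 read 0.69, 0.60 and 0.59 with DHT, against -0.54 and -0.35 with vehicle (1.07 ± 0.13). Kcnk1, Kcnv1, Kcng3 and the sodium activated channel Kcnt2 (A_44_P381715) had log2 fold changes of 0.94 to 1.12, with DHT arrays above vehicle arrays. The other Kcnt2 probe had 0.55 ± 0.21 (limma adjusted p = 0.171). Kcnj5, a G protein gated inward rectifier that pairs with Kcnj3, was the exception, with a log2 fold change of -1.02 ± 0.17 (limma adjusted p = 0.0684). None of these passed. With a single DHT array left out the count was 0. When only probes well above background on all 5 arrays were tested, 11 potassium channel probes passed. The share of all probes in that fit is not given here, so the 11 are not read as a result on these genes.

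Forebrain vehicle and DHT samples also differed in markers of other cell types. Kcnj13, an inward rectifier of choroid plexus epithelium, read -2.0, -2.09 and -2.23 with DHT, against -0.51 and 1.68 with vehicle, a log2 fold change of -2.69 ± 0.63 (limma adjusted p = 0.0834). The 5 choroid plexus genes measured were summed at -1.31 to -0.85 with DHT, against 4.96 to 7.27 with vehicle, and 3 of them were well above background on every DHT array. Oligodendrocyte genes had mean levels of 3.88 to 4.24 with DHT, against 4.77 to 5.06 with vehicle, and neuron genes of 3.15 to 3.30 with DHT, against 2.78 to 3.03 with vehicle. Astrocyte genes had mean levels of 2.52 to 2.54 with DHT, against 2.81 to 3.05 with vehicle, endothelium and mural genes of 0.48 to 0.76 with DHT, against 1.01 to 1.36 with vehicle, and leukocyte genes of -0.53 to -0.40 with DHT, against -0.24 to 0.37 with vehicle. These lists did not overlap between the groups, and none of their genes passed the test. Skeletal muscle genes had mean levels of -4.24 to -2.87 with DHT, against -0.51 to -0.48 with vehicle. The part of these shifts in the potassium channel values was not tested.

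In ovary, none of 60 potassium channel probes and 0% of all 33051 probes passed, with a lowest limma adjusted p of 0.135 for the 60. At an unadjusted p under 0.05, 14 of 60 were lower with DHT, against 10.4% of all probes, and none was higher, against 0.272%. Of the 60 log2 fold changes 51 were below 0, and their median was -1.05, against -0.23 for all probes. Without vehicle arrays 1 and 3 the median was -0.06, against 0.03 for all probes, with 1 vehicle array left, which is assumed to vary like the DHT arrays. Without vehicle array 2, which leaves those 2 arrays, 27 potassium channel probes passed. The share of all probes in that fit is not given here, so the 27 are not read as a result on these genes.

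**Figure D5:**
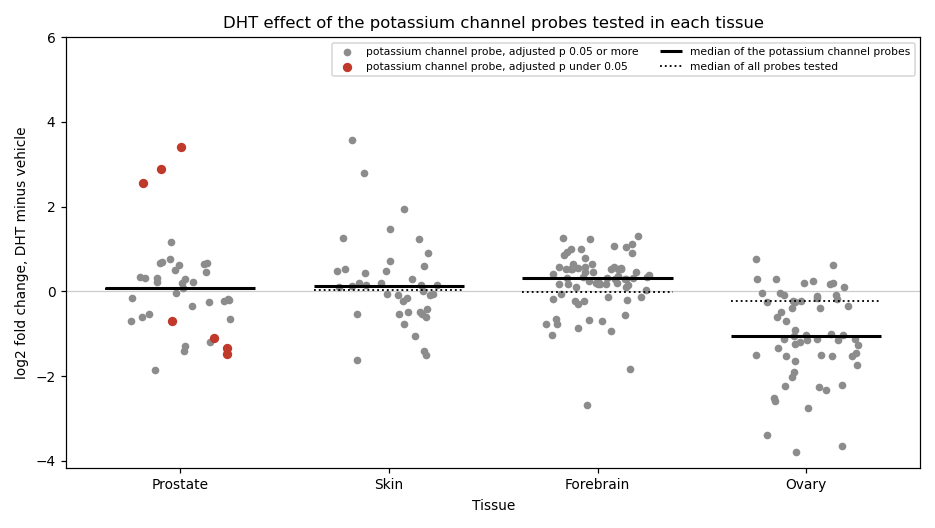
Log2 fold change, DHT minus vehicle, of each potassium channel probe tested in prostate (39), skin (40), forebrain (72) and ovary (60); red points had an adjusted p under 0.05, solid lines are the medians of the potassium channel probes and dotted lines the medians of all probes tested. Red points occur in prostate only, and the medians are 0.07, 0.12, 0.31 and -1.05.

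The 2 ovarian probes with the smallest p were dim with DHT. Kcnc2, a fast voltage gated channel, read -8.65, -8.28 and -6.73 with DHT, where no array had it well above background, against -3.81, -5.05 and -3.42 with vehicle, and was at least 3.79-fold lower (limma adjusted p = 0.135). Kcnh5, a relative of Kcnh1, read -7.81, -7.11 and -6.79 with DHT, against -5.25, -5.58 and -4.21 with vehicle, at least 2.01-fold lower (limma adjusted p = 0.189). In both, vehicle array 2 was the lowest vehicle array, and arrays 1 and 3, those of narrow spread, were higher. Kcnb2, Kcns1, Kcnj5, Kcnn3 and both Kcnab1 probes had log2 fold changes of -3.40 to -0.91, none of which passed. Kcnj8, a channel bright in ovary, read 4.25, 4.29 and 4.15 with DHT, against 3.72, 4.27 and 4.38 with vehicle, with overlapping groups.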

How the data were processed

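Spot intensities were the deposited scanner output of Agilent Feature Extraction, version 10.5.1.1 per the file headers (10.1 per the submitters' processing notes, which also name limma), with processed signals already background-subtracted and spatially detrended by that software. Control spots (1417 of 42429) and spots marked as outliers were left out. Each array's log2 processed intensity was centred on its 75th percentile, starting from the deposited intensities. Array names were matched to rat symbols through RefSeq (GRCr8): 10813 of 41012 probes had a symbol. Probes with no symbol stayed in the fits unnamed. The precision is limited by 2 or 3 arrays a group.

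Linear models (lmFit, then eBayes, of limma 3.58.1 under R 4.3.3) were fitted to single probes well above background on 3 or more of the arrays fitted, with Benjamini-Hochberg adjustment over all probes tested. DHT was compared with vehicle in each tissue alone. Tissues, and the difference of the DHT effect between tissues, used 1 fit of the 8 group means with slide as a random block (correlation 0.0888 and 0.0897). The code was tested on simulated data. The files held no mean signal, so the normexp alternative used the median signal and median background of each spot with an offset of 50.

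Named for DHT were up to 15 probes a direction that passed, or the 8 with the smallest p where under 8 passed. Named for tissues were up to 10 (forebrain 15) with the largest difference among those higher than each other tissue and the 8 with the smallest range, with all Kcnh genes and the 8 smallest p for the difference of the DHT effect. Kcnj8 (for DHT), Kcnj11, Kcnj13 and any other probe outside this rule was chosen after its values were seen. The members and lists were chosen with earlier results of these data known. Same-numbered DHT and vehicle arrays did not deviate together (correlations of -0.43 to 0.01), so the numbers were not used to pair samples. Such correlations cannot show that no pairing exists. Replicate p-values measure the spread between these animals. The values of a few probes under these rules are not reported here, though the counts include them.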

Additional observations from a re-analysis of the deposited data

Results flagged for a closer look

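The DHT effect of 3 potassium channel probes differed between the 4 tissues in the limma test of the difference itself, over 23552 probes: Kcnh2 (adjusted p = 6.03e-05), Kcnmb4 (adjusted p = 0.00870) and Kcnip3 (adjusted p = 0.0340). All 3 had their largest log2 fold change in prostate (3.42, 2.56 and 2.90). Over the fits that left out 1 array each, the adjusted p reached 7.40e-04 at most for Kcnh2, 0.0345 for Kcnmb4 and 0.100 for Kcnip3. With normexp background correction Kcnh2 alone passed. With 3 arrays or fewer in each group, no single array could be tested as an outlier.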

How the results depend on the processing

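The counts in this section are of potassium channel probes alone. The shares of all probes in the same fits are not given, so only the movement of each count is read. The prostate count of 7 became 3 with dim probes left unfiltered, 3 with normexp and 3 in the fit of all tissues with a slide block. It became 13 with array weights, 0 with a replicate block and 3 to 11 with 1 array left out. The forebrain count of 0 became 4 with quantile normalization, 5 with normexp and 11 with probes well above background on every array. It stayed 0 with 1 DHT array left out. The ovary count of 0 became 1 (Kcnc2) in the slide block fit and 0 to 27 with 1 array left out, while skin stayed at 0 in each setting run. With normexp, probes higher in skin than in each other tissue numbered 13 in place of 2, those in forebrain 25 in place of 42, and those whose DHT effect differed between tissues 1 in place of 3. With vehicle arrays only, the skin and forebrain counts were 1 and 27. With 1 slide left out, the counts were 5 to 6 in prostate, 2 to 3 in skin, 40 to 44 in forebrain and 4 to 6 in ovary, and with 1 array left out, 2 to 7 for the difference of the DHT effect. Signs turned for some log2 fold changes that did not pass. In prostate these were Kcnh7 (0.27 with array weights, -0.84 to 0.61 with 1 array left out) and Kcnh4 (-0.79 to 0.30). In skin they were Kcnh2 and Kcnh7 with normexp (0.048 and 0.20), Kcnh3 with array weights (-0.56), and Kcnh3 (-0.66 to 0.83) and Kcnh7 (-0.36 to 0.26) with 1 array left out. In forebrain they were Kcnh5 and Kcnh4 with normexp (-0.16 and -0.13) and with vehicle array 3 (-0.18 and -0.31), and, with 1 array left out, Kcnh2 (-0.13 to 0.80), Kcnh6 (-1.58 to 0.028) and Kcnh3 (-0.083 to 0.45). In ovary they were Kcnab1 (A_44_P442780) and Kcnn3 with quantile normalization (0.51 and 0.0023) and Kcnh1 without vehicle arrays 1 and 3 (-0.085). With 1 array left out, the ovary changes of these Kcnab1 and Kcnn3 probes stayed at -1.08 to -0.79 and -1.69 to -1.07. No such fit left out both ovary vehicle arrays of narrow spread. These ranges therefore do not show whether the changes depend on that spread. Tissue differences that turned with normexp were Kcnk9 (-0.55), Kcnk18 (-2.08), Kcna3 (-1.53) and Kcnh5 (-1.17). Kcnk18 also turned without the arrays of narrow spread (-1.0) or with 1 slide left out (-0.066 to 1.36). The cause was not tested. Same-numbered arrays did not deviate together, which cannot show that nothing pairs them. The prostate calls lost with the replicate block, Kcnh2 included, are therefore given without a reading. Dim probes limit what the ovary and prostate values can show.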
